A study of Mus musculus with 5 samples.

Results

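The WT list held 31116 peaks of naïve CD8+ T cells. Of these, 5634 were weak distal DNase-accessible sites called in the WT pool and not in the Tcf1/Lef1-deficient (dKO) pool. They were chosen by measured values: an autosomal WT peak that overlapped no peak of the dKO list, with its summit over 1000 bp from every annotated transcript start, and with a pileup (the number of fragments covering the summit) below the median of all WT peaks, 54. DNase-seq was performed on naïve GFP+ TCRbeta+ CD62Lhi CD44lo-med CD8+ T cells sorted from the spleen of young adult mice of both sexes. WT mice were hCD2-Cre+ Rosa26GFP Tcf7+/+ Lef1+/+ (3 replicates), and dKO mice were hCD2-Cre+ Rosa26GFP Tcf7 fl/fl Lef1 fl/fl (2 replicates), so both genotypes carried the Cre transgene and the GFP reporter. The hCD2-Cre transgene acts mostly in mature T cells, and sorting on GFP selected the cells in which Cre had been active. The replicates of a genotype had been pooled before peaks were called, with 83923734 fragments kept for WT and 62242963 for dKO, a ratio of 1.35. No spread between replicates exists in these lists, so no p-value between genotypes is given. Absence from the dKO list means that no peak was called there, not that lower accessibility was tested. Testing its replicates, the study found far fewer sites significantly more open in WT, over all strengths and places. Intervals in brackets are 95% intervals over sites (Wilson for a share, Newcombe for a difference of shares), cover counting error only, and are not adjusted for the number of comparisons. Nearby sites of one gene or region are not independent, which makes these intervals too narrow.

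Tcf1 (encoded by Tcf7) and Lef1 are high-mobility-group transcription factors that bind a short A- and T-rich DNA element in the minor groove and bend the DNA. In T cells they act at many enhancers, which are stretches of DNA away from promoters whose nucleosomes are displaced when transcription factors occupy them, and DNase I cuts preferentially at such sites. Runx and Ets family factors are other long-known partners at T cell enhancers.

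The letters of the Tcf/Lef element can be read near the summits of some of these sites. In the sequences below, the core lay between 8 bp (D8Ertd82e and Tcf7l2) and 89 bp (Lyst) from the summit. The first 8 sites below had the highest -log10 q among the members that overlapped a site of decreased accessibility listed by the study and held the core ATCAAAG within 100 bp of the summit. Each sequence is 61 bases of the plus strand of the mm9 genome around the core, with the core in capitals, and it reads CTTTGAT where the core lies on the minus strand. Each is named after the gene to which the study linked its site.
Thbs1, chr2:117833942-117834002: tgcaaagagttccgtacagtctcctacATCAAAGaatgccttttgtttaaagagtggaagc
Ctnnbip1, chr4:148889974-148890034: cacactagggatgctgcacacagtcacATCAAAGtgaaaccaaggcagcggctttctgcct
Lyst, chr13:13674372-13674432: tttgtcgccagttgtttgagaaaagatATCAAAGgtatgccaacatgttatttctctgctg
Adora2a/Upb1, chr10:74880623-74880683: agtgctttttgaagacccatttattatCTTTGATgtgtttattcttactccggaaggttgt
D8Ertd82e, chr8:37091605-37091665: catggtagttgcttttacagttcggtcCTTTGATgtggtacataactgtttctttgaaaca
Adk, chr14:21932098-21932158: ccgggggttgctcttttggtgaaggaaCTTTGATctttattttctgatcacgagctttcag
Spon1, chr7:121354293-121354353: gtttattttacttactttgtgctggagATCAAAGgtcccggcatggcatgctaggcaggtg
Dgkg, chr16:22526636-22526696: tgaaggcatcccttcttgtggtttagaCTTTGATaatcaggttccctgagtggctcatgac
The next 6 had the highest -log10 q among core-bearing members linked to genes of the 7 panels described further on (T cell identity, naive homing and quiescence, effector and cytotoxic, Treg and helper, B cell, myeloid and dendritic, Wnt pathway). The Tcf7l2, Bcl11b, Lck and Syk sites lay in introns of annotated transcripts. The Flt3 site lay in a noncoding part of an exon, and the Btg1 site was intergenic.
Tcf7l2, chr19:55867195-55867255: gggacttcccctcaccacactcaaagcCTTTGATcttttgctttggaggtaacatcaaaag
Bcl11b, chr12:109017622-109017682: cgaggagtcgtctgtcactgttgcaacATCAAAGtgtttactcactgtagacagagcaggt
Flt3, chr5:148174792-148174852: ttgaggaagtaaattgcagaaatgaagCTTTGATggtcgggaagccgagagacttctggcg
Lck, chr4:129242631-129242691: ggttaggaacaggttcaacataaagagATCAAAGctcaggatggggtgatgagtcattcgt
Syk, chr13:52723497-52723557: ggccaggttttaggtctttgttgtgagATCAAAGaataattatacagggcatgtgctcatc
Btg1, chr10:96117428-96117488: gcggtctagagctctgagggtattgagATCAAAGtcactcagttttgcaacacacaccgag

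The Thbs1 site (chr2:117833829-117834143, in an intron of another transcript 104 kb upstream of the Thbs1 start) had a WT pileup of 52 and a fold enrichment over local background of 8.75. Ctnnbip1 encodes an inhibitor of the binding of beta-catenin to Tcf factors, and its site lay 2.30 kb upstream of the gene with a pileup of 53 and a fold enrichment of 7.80. The site 8.19 kb upstream of Lyst, a regulator of lysosomal trafficking, had a pileup of 45. The site linked to Adora2a, a receptor of adenosine, lay in a noncoding part of an exon and had a pileup of 47. Adk, adenosine kinase, had an intronic site with a pileup of 41. In the D8Ertd82e site the core lay 8 bp from the summit, and the pileup was 46. The sites linked to Spon1 and Dgkg, a diacylglycerol kinase, had pileups of 39 and 38. None of these sites overlapped a dKO peak, which the rule required of every member.

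Tcf7l2 encodes another member of the Tcf/Lef family, and its intronic site 50.9 kb from the gene start had a pileup of 53, a fold enrichment of 9.52 and a core 8 bp from the summit. The site of Bcl11b, a transcription factor of the T lineage, lay 224 kb beyond the gene start on the downstream side and had a pileup of 45. Flt3, a receptor tyrosine kinase of progenitors and dendritic cells, had a site with a pileup of 42. Lck, the kinase of the T cell co-receptors, had an intronic site with a pileup of 39 at 8.19 kb from its start. The second intronic site of Syk, a kinase of B cell receptor signalling, had a pileup of 36. Its core lay 72 bp from the summit, at the edge of the peak. The Btg1 site lay 37.8 kb downstream of the gene start with a pileup of 39.

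Absence from the dKO list was much more frequent among weak than among strong WT peaks. Of 30399 autosomal WT peaks, 9164 (30.1%) overlapped no dKO peak. Among 18048 distal WT peaks the share was 37.1%, and among the 10741 weak ones it was 52.5% (51.5 to 53.4). It was 14.5% (13.8 to 15.4) among strong distal WT peaks. The members made up 61.5% of all autosomal WT peaks without a dKO peak. These shares follow from the rule and are given as a description.

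The members had pileups from 16 to 53 with a median of 32, and fold enrichments from 2.16 to 10 with a median of 5.23. Their -log10 q ranged from 2.56 to 35.3 with a median of 12.1, and their median width was 141 bp. The study counted a peak as an accessible site from a fold enrichment of 4, and 4545 of the members (80.7%) met all of its criteria, while 1089 had a fold enrichment under 4. Just inside the threshold, 79 members had a pileup of 53 and a median fold enrichment of 9.48. Just outside it, 76 WT-only distal peaks had a pileup of 54 and a median fold enrichment of 9.30. In the lowest pileup class of distal WT peaks, 16 to 20 fragments, 79.6% had no dKO peak. In the class of 31 to 35 fragments the share was 55.1%, in that of 46 to 53 it was 36.4%, and in the last class but 1 it was 1.68%.

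**Figure D1:**
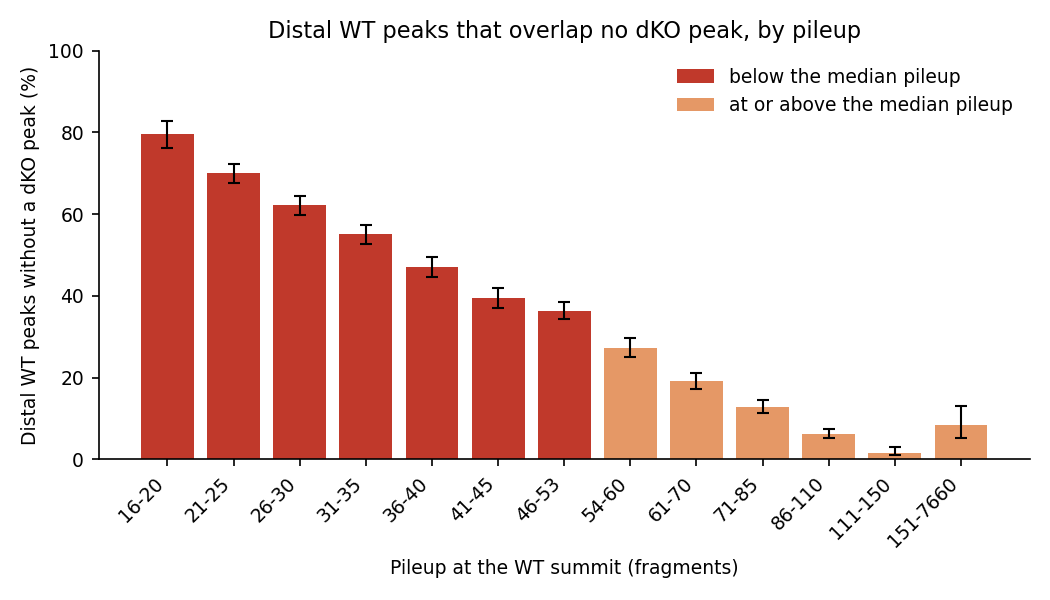
Share of distal autosomal WT peaks that overlapped no dKO peak (percent, vertical axis) in classes of pileup at the WT summit (fragments, horizontal axis), with 95% Wilson intervals as error bars and the classes that hold the members in red. The share went from 79.6% in the lowest class to 1.68% in the last class but 1, and was 8.33% in the last class of 192 peaks.

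The dKO pool was the shallower of the 2. Scaled by the depth ratio, the members' median pileup corresponded to 23.7 fragments in the dKO pool. The lowest pileup of any distal dKO peak was 13, and 57 members (1.01%) fell below it after scaling. The 5th percentile of distal dKO peaks was 18, with 1264 members (22.4%) below it, and the 25th percentile was 26, with 3501 (62.1%) below it. Of the weak distal WT peaks that did overlap a dKO peak, 8.64% fell below 18 and 38.8% below 26 after the same scaling. In the reverse direction, 2540 of the weak distal dKO peaks (30.4%, 29.4 to 31.4), cut at the dKO median pileup of 42, overlapped no WT peak. The part of depth in the members' absence from the dKO list was not tested.

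To describe what the members share beyond the rule, they were set beside 3 other sets: 5107 weak shared distal sites, which met the same rule but overlapped a dKO peak, 1063 strong WT-only distal sites, and the 2540 weak dKO-only distal sites. The weak shared sites were stronger than the members within the weak range, with a median pileup of 39 and a median fold enrichment of 6.13, so motif shares were also weighted to the members by 5 classes of pileup and 5 of GC content.

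Of the 14 motifs searched, the Tcf/Lef core had the highest ratio of its share in the members to that in weak shared sites. ATCAAAG lay within 100 bp of the summit, on either strand, in 448 members (7.95%, 7.27 to 8.69) and in 146 weak shared sites (2.86%, 2.44 to 3.35). The difference was 5.09 percentage points (4.25 to 5.94). After weighting to the pileup and GC content of the members, the share of the weak shared sites was 2.81%, and the members held the core 2.83 times as often. Weak dKO-only sites held it in 2.32% (1.81 to 2.98), strong WT-only sites in 9.69% (8.05 to 11.6), and all autosomal WT peaks in 3.91%. The members minus the strong WT-only sites gave -1.74 points (-3.78 to 0.0557), an interval that includes 0. With a window of 50 bp on either side of the summit, the members' share was 4.51% and the difference from weak shared sites 3.33 points. The variant TTCAAAG showed the same order, in 9.73% of the members, 4.58% of the weak shared, 4.17% of the weak dKO-only and 12.1% of the strong WT-only sites.

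Read the other way, 594 weak distal WT peaks held the core, and 75.4% of them (71.8 to 78.7) had no dKO peak, compared with 51.1% (50.1 to 52.1) of the 10147 without it. The core was found in a minority of the members, and 5186 of them held none in this window.

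Within the members the core was most frequent around the summit. Of the 448 core-bearing members, 254 held it within 50 bp of the summit, and the rest only farther out. The members had 4.90 cores per 100 sites within 50 bp of the summit, against 1.84 per 100 sites and 100 bp at 300 to 500 bp away. Strong WT-only sites showed the same form, with 5.36 and 1.88. In weak shared sites the counts were 1.25 at the summit and 1.65 in the flanks, and in weak dKO-only sites 1.06 and 1.75. Away from the summit the 4 sets thus lay close together, between 1.65 and 1.88.

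**Figure D2:**
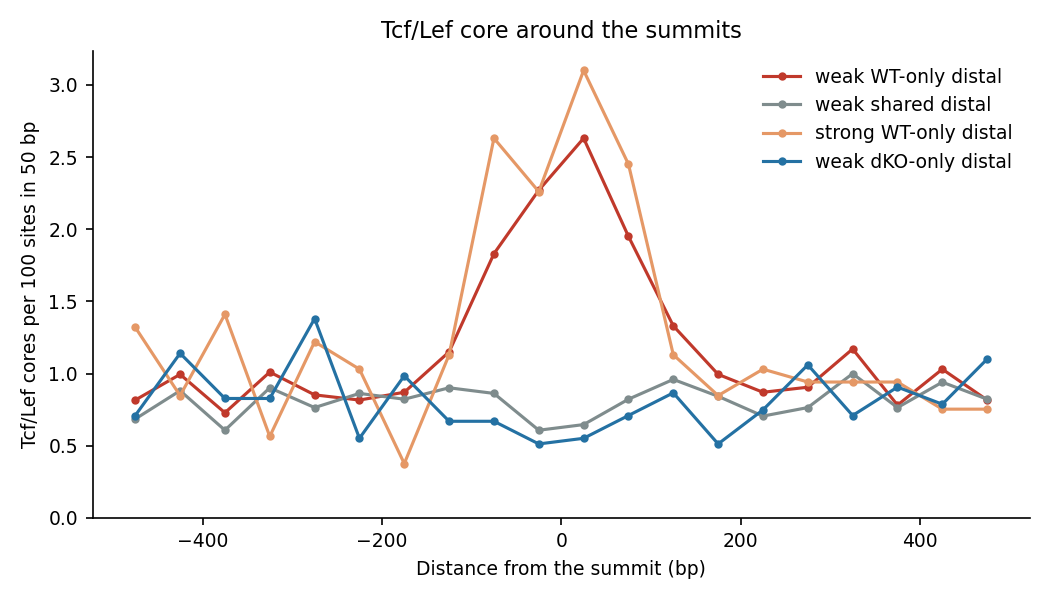
Occurrences of the Tcf/Lef core per 100 sites (vertical axis) in bins of 50 bp by distance from the summit (bp, horizontal axis), with 1 line for each of the 4 sets of distal sites. Only the lines of the WT-only sets, weak and strong, peak at the summit, where the members had 4.90 cores per 100 sites within 50 bp against 1.25 in weak shared sites.

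The excess of the core was present at every strength and place examined. In the pileup class of 16 to 25, 6.63% of the members and 3.26% of the weak shared sites held it (difference 3.37 points, 1.2 to 5.19), and in the class of 46 to 53 the shares were 9.34% and 3% (6.33 points, 4.21 to 8.71). In introns the core was found in 8.58% of the members and 2.40% of the shared sites (6.18 points, 4.99 to 7.39), and between genes in 7.31% and 3.30% (4.02 points, 2.79 to 5.27). By distance from the nearest transcript start the members' share was highest at 20 to 50 kb, 10.2%, compared with 3.14% of the shared sites. The base before the core differed too. C preceded it, as in the Thbs1, Ctnnbip1 and Bcl11b sequences above, in 193 of the 448 core-bearing members (43.1%, 38.6 to 47.7) and in 43 of the 146 shared ones (29.5%, 22.7 to 37.3), a difference of 13.6 points (4.58 to 21.8). Strong WT-only sites gave 45.6% (36.3 to 55.2). A preceded the core less often in the members, at 74 of 448 sites against 44 of 146 shared ones. The comparison by C was not planned, and the counts of every flanking base were at hand. A second core in the window was found in 25 members.

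The Runx, Ets, AP-1 and GC box motifs were less frequent in the members than in weak shared sites, while their order against weak dKO-only sites varied. The Runx motif TGTGGT was found in 28% of the members (26.8 to 29.2), 33.9% of the weak shared sites and 35.6% of the weak dKO-only sites. In percentage points this was the widest difference from weak shared sites of any motif searched, the variant TTCAAAG (5.14) and the core (5.09) following. The difference from weak shared sites was -5.90 points (-7.65 to -4.15), and the share of the shared sites weighted to the members was 35.7%. The Ets motif AGGAAG was found in 42.1% of the members and 46.2% of the weak shared sites (-4.03 points, -5.91 to -2.15). Weak dKO-only sites had fewer Ets motifs than the members, 38.0% (members minus these sites 4.17 points, 1.87 to 6.44), and strong WT-only sites held one in 31.6%. TGANTCA, which AP-1 factors bind, was found in 7.86% against 9.61% (-1.75 points, -2.83 to -0.683), and in 9.25% of the weak dKO-only sites (-1.39 points, -2.76 to -0.0958). The GC box CCGCCC was found in 7.88% against 10.3% (-2.46 points, -3.56 to -1.37), but in only 5.20% of the weak dKO-only sites (2.68 points, 1.53 to 3.77).

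For the other motifs searched the interval of the difference from weak shared sites included 0. The E-box CAGGTG was found in 18.5% of the members and 17.4% of the shared sites, and the E-box CAGCTG in 14.0% and 14.6%. CNAGNNGGC, part of the element bound by the insulator protein CTCF, was found in 16.8% and 17.5%, but in 27.6% of the strong WT-only sites, 10.8 points above the members (members minus strong sites -10.8, -13.7 to -7.99). The Gata motif AGATAA was found in 8.40% and 8.87%, and in 12.2% of the weak dKO-only sites. The Stat motif TTCNNNGAA was in 7.49% and 6.58%, the Irf motif GAAANNGAA in 8.52% and 8.89%, the Fox motif TGTTTAC in 3.32% and 3.74%, and the Nr4a motif AAAGGTCA in 0.710% and 0.862%. All motifs were counted on both strands. The letters CAAAG are shared by the Tcf/Lef core and its variant, and AAAG by both and the Nr4a motif.

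**Figure D3:**
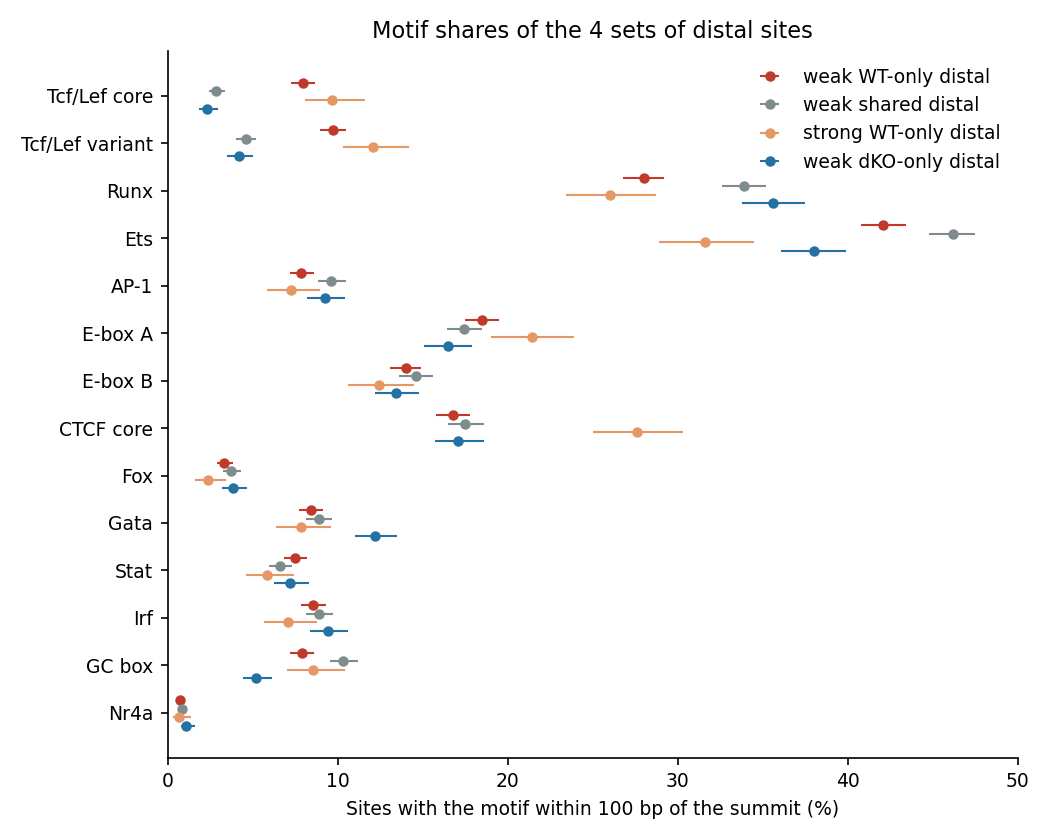
Share of sites with each of 14 motifs within 100 bp of the summit (percent, horizontal axis) in the 4 sets of distal sites, with 95% Wilson intervals, where E-box A is CAGGTG and E-box B is CAGCTG. Both Tcf/Lef motifs are more frequent in the WT-only sets (7.95% and 9.69% for the core) than in shared and dKO-only sites, and Runx is less frequent in the members (28%) than in weak shared sites (33.9%).

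A count over all 7-letter words, which used no motif knowledge, gave the same sequence. Of 3905 words present in at least 2% of the members or the weak shared sites, ATCAAAG had the highest ratio of the 2 shares, 2.78. It was followed by CATCAAA (2.64), ACATCAA (2.55), ACTTCAA (2.13) and CTTTGAA (2.12), the last being the variant read on the other strand. The first 3 of these overlap each other as one stretch. The median ratio of all words was 1.01. The words least frequent in the members relative to shared sites were GCTAACC (0.582), ACCTCTA (0.602), CGGAAAC (0.630), ACCGCAG (0.636) and TGGTTAA (0.641).

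Among the members themselves, the share with the core went up over the classes of pileup, from 6.63% (5.47 to 8.01) at 16 to 25 through 8.11% and 8.36% to 9.34% (7.49 to 11.6) at 46 to 53. The medians lay close together, with a pileup of 33 and a fold enrichment of 5.39 in core-bearing members against 32 and 5.21 in the others. Runx was found in 28.3% of the core-bearing and 27.9% of the other members (difference 0.408 points, -3.76 to 4.92), and Ets in 40.8% and 42.2% (-1.38 points, -6.04 to 3.42). Of the 6 motifs compared, the E-box CAGGTG alone differed beyond its interval, at 11.6% in core-bearing and 19.1% in other members (-7.48 points, -10.3 to -4.02). The median GC content of the windows was 47.3% in core-bearing and 49.3% in other members, and its part in that difference was not tested.

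The members lay in introns somewhat more often than weak shared sites. By the gencode annotation, 2868 summits were intronic (50.9%, 49.6 to 52.2), against 47.3% of the weak shared sites (difference 3.58 points, 1.68 to 5.47) and 45.8% of the weak dKO-only sites (5.12 points, 2.78 to 7.45). Strong WT-only sites had 48.5%, and the interval of their difference included 0 (2.36 points, -0.912 to 5.63). Intergenic summits made up 44.4% of the members and 48.7% of the shared sites. Coding exons held 124 members (2.2%) and other exons 140 (2.48%). The median distance from the nearest transcript start was 13.8 kb for the members, 13.5 kb for weak shared and 10.7 kb for strong WT-only sites.

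Some members lay close to a dKO peak without touching it, as did the other sets found in 1 list only. A dKO peak lay within 1 kb of 670 members (11.9%, 11.1 to 12.8) and within 10 kb of 2665 (47.3%), and the median gap was 11118 bp. For strong WT-only sites the shares were 11.8% and 54.8% with a median of 7994 bp, and for weak dKO-only sites, measured to the nearest WT peak, 14.6% and 56.5% with 7779 bp. These distances count every peak of the other list, including peaks found in that list only. For 40 members the gap was at most 100 bp. With lists cut to the 20000 peaks of the highest -log10 p in each, the rule found 2561 sites and the share within 1 kb of a dKO peak was 5.08%.

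The super enhancers (SEs) and chromatin interaction hubs that the study found to differ between the genotypes divided the weak distal peaks. SEs are long clusters of enhancers with strong H3K27ac, a histone mark of active enhancers, and hubs are regions with many Hi-C contacts. The lists used here hold the SEs and hubs that the study linked to genes of changed expression, and both were defined from assays other than DNase-seq in cells of the same genotypes. Of 265 weak distal WT peaks in WT-prepotent SEs, which had more H3K27ac in WT cells, 162 (61.1%, 55.1 to 66.8) had no dKO peak, 8.90 points (2.83 to 14.6) above the weak distal peaks elsewhere. In dKO-prepotent SEs the share was 38.7% (195 of 504 peaks, 34.5 to 43.0), a difference from the rest of -14.4 points (-18.7 to -10). WT-specific hubs had 63.0% (104 of 165, 55.4 to 70) and dKO-specific hubs 36.1% (26 of 72, 26 to 47.6). Counted by region, members outnumbered weak shared sites in 29 of the 47 WT-prepotent SEs that held either and were outnumbered in 11. In the 86 dKO-prepotent SEs these numbers were 19 and 58, in 45 WT-specific hubs 28 and 11, and in 26 dKO-specific hubs 6 and 18. Unlike the motif shares, the shares by region, by linked gene and by panel were not weighted for pileup. The part of pileup in their differences was not tested.

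The linked genes divided the weak distal peaks in the same directions. This is not an independent result, since the SEs and hubs above were listed through genes of the same set. Sites were linked to every protein-coding gene from 50 kb upstream of its start to its end, or otherwise to the nearest gene body, and 5234 of 22238 genes (23.5%) had a linked member, 3488 of them exactly 1. The lists of genes lower and higher in dKO cells come from the study's RNA-seq of the same genotypes and were chosen there for their change. Each joins genes past the study's limits of fold change and FDR with lineage-enriched genes from the leading edges of its enrichment analysis. The leading-edge genes had to pass no limit of their own, so not every listed gene was significantly changed. Weak distal peaks linked to a gene lower in dKO had no dKO peak in 58.2% (260 of 447, 53.5 to 62.6), which was 5.96 points (1.24 to 10.5) above the rest. Those linked to a gene higher in dKO had none in 44.3% (439 of 992, 41.2 to 47.4), a difference of -9.03 points (-12.3 to -5.77). Counted by gene, members outnumbered weak shared sites at 91 of 174 genes lower in dKO and were outnumbered at 51. At 478 genes higher in dKO the numbers were 179 and 233, and at all 7849 genes with a weak distal peak 3622 and 3212. Even so, more members were linked to genes higher in dKO (7.79% of all members) than to genes lower in dKO (4.61%). The first list is also the longer, with 809 matched genes against 264, and the part of list length was not tested.

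Of the 12 lists of lineage-enriched genes that the study compiled, which share genes with the lists above, 4 had an interval of this difference that excluded 0. Weak distal peaks linked to naive CD4 T cell genes had no dKO peak in 73.9% (34 of 46 peaks, 21.6 points above the rest, 7.35 to 32.1). Peaks linked to gamma-delta T cell genes had none in 43.8% (-9.04 points, -13.6 to -4.41), to effector CD8 genes in 46.1% (-6.51 points, -12.2 to -0.742) and to pan-NK genes in 46.8% (-5.86 points, -11.3 to -0.346). Pan-T genes, at 51.6%, and B cell genes, at 53.8%, lay near the background of 52.5%. The intervals of the Treg (57.5%), pDC (56.7%), cDC (52.3%), granulocyte (49.5%), monocyte (48.3%) and naive CD8 (44.0%) lists included 0.

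**Figure D4:**
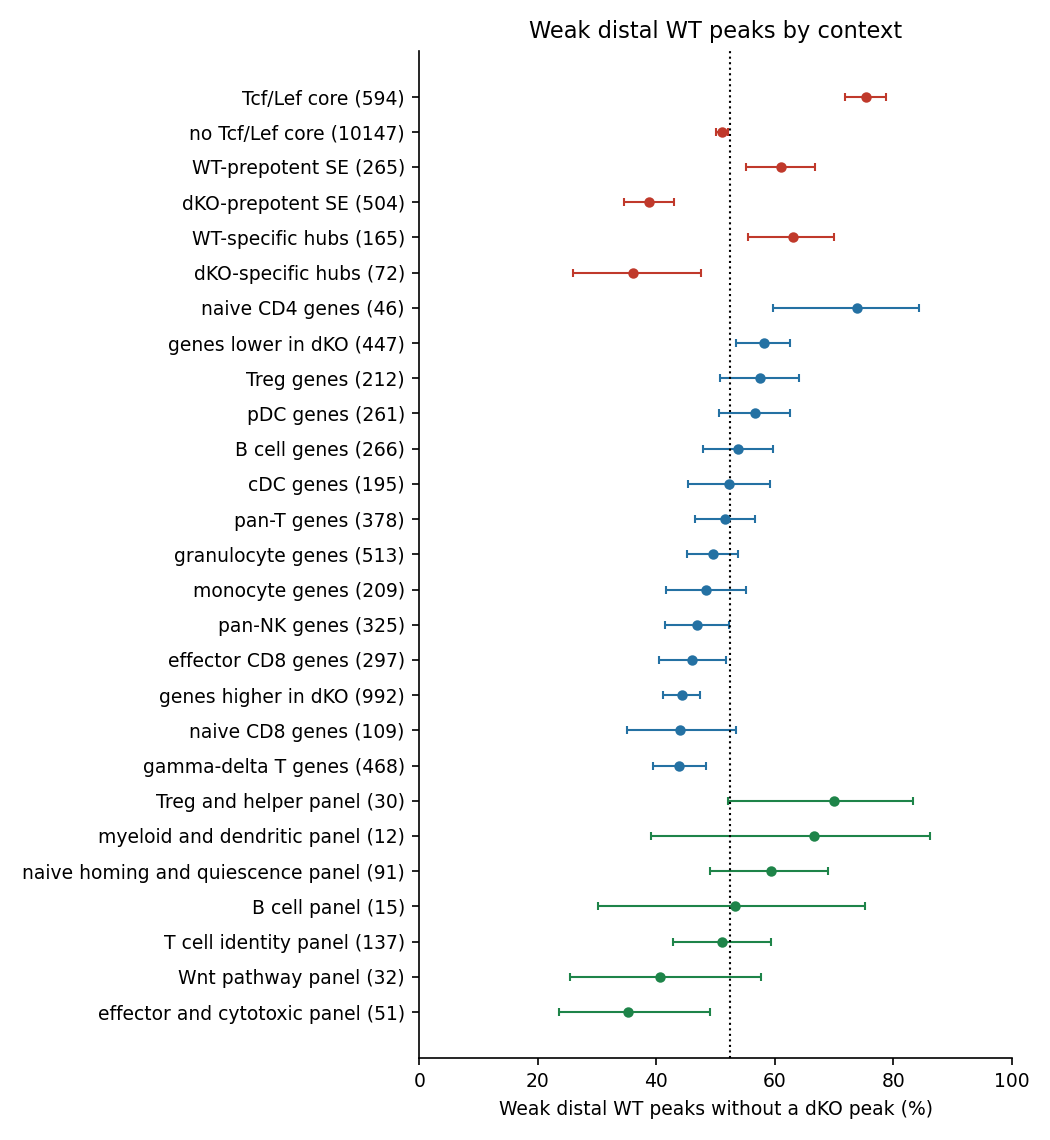
Share of weak distal WT peaks without a dKO peak (percent, horizontal axis) for peaks with and without the Tcf/Lef core and in SEs and hubs (red), linked to gene lists of the study (blue) and linked to gene panels (green), with 95% Wilson intervals, the number of peaks in brackets, and the share of all weak distal WT peaks, 52.5%, as a dotted line. Core-bearing peaks (75.4%) and WT-specific hubs (63.0%) lie to the right of the line and dKO-prepotent SEs (38.7%) and genes higher in dKO (44.3%) to its left.

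Genes of T cell identity had members and weak shared sites in near-equal numbers. Of the 24 genes of that panel 22 had a linked member (91.7%, against 23.5% of all protein-coding genes), with 70 members and 67 weak shared sites in all. The share without a dKO peak, 51.1% (42.8 to 59.3), lay at the 52.5% of all weak distal WT peaks. Satb1, a chromatin organizer of T cells, had 9 members and 9 weak shared sites. Lef1 itself had 7 and 9, and Bcl11b had 6 and 8. Myb, a transcription factor of thymocytes, had 5 members and 1 weak shared site. One of them lay in an intron 1.86 kb from the gene start with a pileup of 40, and 4 were upstream between 17.5 and 62.8 kb with pileups from 25 to 36.

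Of the genes of naive homing and quiescence, 13 of 16 had members, 54 in all against 37 weak shared sites. The share without a dKO peak was 59.3% (49.1 to 68.9), an interval that includes 52.5%, and Btg1 and Bach2 had the most members of all panel genes. Btg1, an inhibitor of proliferation that keeps T cells quiescent, had 13 members and 8 weak shared sites, and Bach2, a repressor that holds back effector differentiation, had 10 and 4. Foxp1, a forkhead factor of quiescence, had 6 and 8. Igf1r, the receptor of insulin-like growth factor, had 5 and 1, although the study counts it as a granulocyte-enriched gene repressed by Tcf1/Lef1. The Btg1 members lay on both sides of the gene, from 150 kb upstream to 338 kb downstream, and their pileups ranged from 20 to 52. Most of them lay outside the span from 50 kb upstream of the start to the gene end. Those were linked to Btg1 only as the nearest gene body, as were the weak shared sites drawn around it. The part of this rule in the counts of Btg1 and of its panel was not tested. Among the Btg1 members stood stronger peaks that dKO cells shared, such as that at the Btg1 promoter with a pileup of 140 in WT and 105 in dKO. At Bach2, 1 member lay 72.5 kb upstream and 9 within the gene, among them sites at 41.8 and 42.7 kb with pileups of 49 and 36. These members too stood among peaks that were present in both lists.

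**Figure D5:**
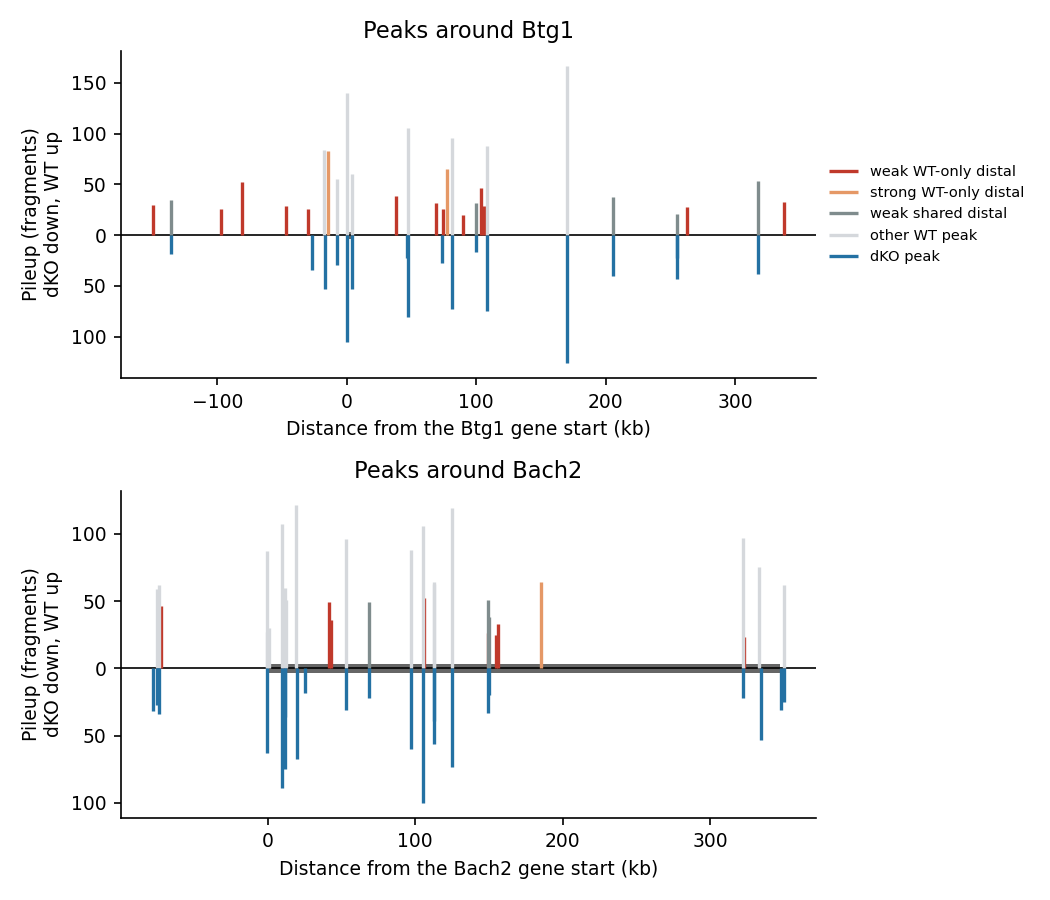
Peaks around Btg1 and Bach2 by distance from the gene start along the direction of the gene (kb, horizontal axis) and pileup at the summit (fragments, vertical axis, WT upward and dKO downward, not scaled to depth), with the gene as a dark bar and weak WT-only distal sites in red. The 13 members of Btg1, with pileups from 20 to 52, and the 10 of Bach2 overlap no dKO peak, while the tallest WT peaks of both loci do.

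Genes of effector and cytotoxic function had fewer members than weak shared sites. Members were linked to 11 of the 18 genes, 18 in all against 33 weak shared sites (35.3%, 23.6 to 49, below 52.5%). Id2, a regulator of effector differentiation, had 4 members and 7 weak shared sites, Ifng, encoding interferon gamma, had 3 and 6, Fasl, a ligand that induces cell death, had 3 and 4, and Tbx21, the T-bet gene, had 1 and 1. Of the Treg and helper panel 6 of 12 genes had members, 21 against 9 weak shared sites (70%, 52.1 to 83.3, an interval that includes 52.5%). Rora, encoding a nuclear receptor, had 5 and 2, Nrp1, a surface receptor of Treg cells, had 4 and 2, Ikzf2, encoding Helios, had 4 and 1, and Ctla4, an inhibitory receptor, had 4 and 2.

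Genes of other lineages had members too, in small numbers, and for the B cell, myeloid and Wnt panels the interval of the share without a dKO peak included 52.5%. Members were linked to 6 of 10 B cell genes (60%), 8 in all against 7 shared sites (53.3% without a dKO peak, 30.1 to 75.2). Syk had 3, all intronic, with 0 weak shared sites, and 2 of them held the core. Pax5, the factor of B cell commitment, Blk, a B cell kinase, and Ebf1 had 1 each. Of the myeloid and dendritic panel 9 of 10 genes were matched and 4 had members (44.4%), 8 against 4 shared sites (66.7%, 39.1 to 86.2). Itgam, encoding CD11b, had 4 and the neighbouring Itgax, encoding CD11c, 3, all 3 of them shared with Itgam, with 0 weak shared and 0 weak dKO-only sites at either. The strongest had a pileup of 52 and lay in an Itgam intron. Flt3 had 2 members and Cebpb, a myeloid transcription factor, 2. Of 14 Wnt pathway genes 6 had members, 13 against 19 shared sites (40.6%, 25.5 to 57.7), with 5 at Myc, 3 at the co-repressor gene Tle4, 2 at Tcf7l2 and 1 at Tcf7l1.

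As a check of the sorted cells, a promoter peak was sought at defining markers. The T cell genes Cd3e, Cd3d, Cd3g, Cd8a, Cd8b1, Lck and Trat1 had one in WT at 7 of 7 genes and in dKO at 5 of 7, Cd3d and Trat1 being without one. None of the B cell genes Cd79a and Ms4a1, the NK cell genes Ncr1 and Klrb1c or Cd4 had a promoter peak in either list. Of the myeloid genes, Itgam had one in WT and not in dKO, and Lyz2 and Csf1r had none in either. A part of cells of another type in the sites at Itgam and Itgax was not tested.

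The differential sites that the study listed beside genes of changed expression included 62 of the members. These sites were chosen by the study on the same DNase libraries, so the overlap is not independent of the rule. The list as used here holds 132, 80, 11 and 98 distinct sites in its clusters 1 to 4. These numbers differ from those the study describes, with more sites in some clusters and fewer in others. Counts of members in the list are therefore given with no share or interval. Clusters 1 and 3, whose accessibility was higher in dKO, held 0 members. Cluster 2, of lower accessibility in dKO beside genes higher in dKO, held a member at 32 sites, and cluster 4, of lower accessibility beside genes lower in dKO, at 30. The core was found in 13 of the 32 members in cluster 2 and in 3 of the 30 in cluster 4.

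By -log10 q, the leading members of cluster 2 were linked to Flt3, 4930544D05Rik, Thbs1, Arhgef10l, Anxa4, Il2ra, Ctnnbip1 and Dennd5a, with pileups from 48 to 53. The Flt3 site lay 48.2 kb upstream and had a pileup of 53 and a fold enrichment of 9.32, and the site 23.0 kb upstream of Il2ra, which encodes the alpha chain of the IL-2 receptor, had 51 and 8.29. A second Il2ra site 25.9 kb upstream, with a pileup of 32, held the core. In cluster 4 the leading members were linked to Ttc7b, Mmd, Cyth3, Lyst, Tubb3, Itfg3, Ankrd55 and Adk, with pileups from 41 to 53. The Ttc7b site, 23.6 kb upstream, had the highest fold enrichment of all members, 10.

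The genes with the most members were set by annotation as much as by the sites. C130026I21Rik had 24 members, 17 of them in windows where at least 50% of the words of 32 bases occur elsewhere in the genome, and 26 weak shared sites. Gm15319 had 10 members with 7 in such windows, and Speer4e had 9 with all 9. These genes belong to families of near-identical copies, among which reads may be misplaced, so their sites are uncertain. The authors kept only uniquely mapped reads, and whether reads at these sites were misplaced was not tested. Gm20388 had 22 members and Fgfr2 17, but the annotation gives these genes spans of 4435 and 3009 kb. Eif4e3, Fam49b and Wwox had 0 members in repeated windows. Eif4e3, a translation initiation factor, had 14 members and 10 weak shared sites, Fam49b, a regulator of the actin cytoskeleton, had 11 and 2, and Wwox, a large tumour suppressor gene of 913 kb, had 10 and 6. The annotated span of Eif4e3, 409 kb, covers the region upstream of Foxp1, so some of its members are also counted for Foxp1. Over all members, 170 (3.02%, 2.60 to 3.50) lay in repeated windows, against 2.49% of weak shared sites (difference 0.531 points, -0.0924 to 1.15).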

How the data were processed

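Per the methods and file headers, the authors digested nuclei of sorted CD8+ T cells with DNase I. Read pairs were aligned to mm9 with Bowtie2 2.2.5, and only uniquely mapped reads were kept. The replicates were then pooled, and peaks were called with MACS2 2.1.1.20160309 at a p-value threshold of 1e-05 without a control. The deposited pileup is a signal, the unscaled number of fragments over the summit. Fold enrichment, as deposited, divides the pileup by the local background (a ratio), and the deposited -log10 p and -log10 q are the test of MACS2 against that background. The pools held 83923734 (WT) and 62242963 (dKO) fragments.

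The members, motifs and gene lists were chosen with earlier results of these data known. Peaks were called overlapping from 1 bp. The 201 bp around each summit were read from the NCBIM37 (mm9) genome, and places and transcript starts from gencode. Python 3.11.15, pysam 0.24.0, scipy 1.17.1 and statsmodels 0.14.6 were used, and functions were tested on simulated data. Names followed fixed rules: the 8 differential sites per cluster with the highest -log10 q, the 10 genes and 5 chains with the most members, up to 4 genes per panel (ties by -log10 q), all 14 motifs and the 5 highest and 5 lowest 7-letter words. Second sites of a named gene were added after their values were seen. Alternatives were other overlaps, thresholds, list lengths, distances, windows and gene links.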

Additional observations from a re-analysis of the deposited data

How the results depend on the processing

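Of 60 values recomputed for 7 results under 10 alternatives, 46 stayed within the interval of the reported value (for the number of sites, within 1.5 times), 14 moved and 0 changed sign. With the top 20000 peaks of each list, 2561 sites were found, of which 48.3% were intronic, 5.39% were linked to genes lower in dKO, 8.55% to genes higher in dKO, and 5.08% lay within 1 kb of a dKO peak. That last share was 9.33% under the study's criteria for accessible sites, 13.2% where overlap needed 50% of the shorter peak, 8.13% at q under 1e-10 and 14.2% with fold enrichment in place of pileup. A 50 bp window gave the core in 4.51% of the sites, 3.33 points above weak shared sites, as fewer bases are searched. A distal limit of 5000 bp gave 49% intronic sites. Linking to the nearest gene start only gave 3.83% for genes lower and 5.32% for genes higher in dKO, since fewer genes are linked. For the other moves the cause was not tested. The difference in the core from weak shared sites was 5 to 5.30 points under the other alternatives, of which leaving out repeated windows was chosen after seeing the data. No paired analysis was possible because the lists hold pooled replicates, and for the same reason no replicate could be left out. Depth limits what absence from the dKO list can show, most of all for the weakest sites.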

Other observations

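Members were found on all 19 autosomes, with between 16.6 and 33.2 per 10 Mb and the most on chromosome 11. The share of weak distal WT peaks without a dKO peak ranged from 47.3% to 56.2% between chromosomes.

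Most members had no other member nearby, although 3206 (56.9%, 55.6 to 58.2) had another WT peak of any kind within 10 kb, at a median distance of 7.83 kb over all members. With gaps of at most 10 kb between summits, 4364 were single and 1270 (22.5%) fell into 567 chains, of which 10 had 5 or more members. Another member lay within 10 kb of 22.5% of the members (21.5 to 23.7), 20.8% of weak shared sites (19.7 to 21.9) and 19.4% of strong WT-only sites (17.1 to 21.9). The chain with the most members, 7 over 19.1 kb near Gm13139, had 5 in repeated windows, and the 6 near Speer4e and Gm9758 all lay in such windows. The chains of 5 near Gm13247 and C130026I21Rik had 2 and 4 in them. The chain of 5 near Tssc1 (chr12:29485684-29499530) had 0 in them and spanned 13.8 kb that held 0 dKO peaks.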
